A study of Mus musculus with 12 samples.

Results

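The change of wild-type (WT) CD8 T cells between day 3 and day 5 of culture was described from 6 of the 12 libraries of the series. These were the 3 libraries of WT cells at day 5 and the 3 of WT cells at day 3, chosen by the genotype and day in their titles. The cells of both days were splenic CD8 T cells of female C57BL/6 mice, prepared as naive (CD44 low) before culture with an isolation kit and antibody against CD44. They had been activated for 2 days on immobilised antibody against TCR-β at 3 µg/ml and antibody against CD28 at 1 µg/ml, with interleukin-2 (IL-2) at 10 ng/ml. Both groups were then moved to a new plate and kept in IL-2 at 10 ng/ml, without the antibodies as far as the labels say. The labels give 1 day or 5 days for this second phase, without saying which libraries had which. Both phases come to the 3 of the earlier titles with 1 day and run past the 5 of the later titles with 5 days, so the time between the groups may be longer than the titles say. The other 6 libraries, of cells deficient in Ezh2 (KO) at day 5 and at day 3 after the same culture, were used only to ask whether the day change of WT cells differed from that of KO cells. How the deficiency was made, and whether replicate libraries came from separate mice or cultures, is not given in the labels. What the p-values weigh a change against is thus the spread among 3 libraries of a group, and that spread may be technical.

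A naive CD8 T cell that meets antigen together with costimulation grows, divides rapidly and turns to glycolysis, with a burst of early response genes, cytokines, Myc and the high-affinity IL-2 receptor. Once the antigen receptor signal ends, IL-2 alone signals through JAK kinases and STAT5 and can carry division on for days while the cells take on the tools of killer cells, such as granzymes, and the receptors that guide them into tissue. Sterol synthesis under SREBP factors, amino acid supply under ATF4 and protein folding under HSF1 are the textbook supports of such growth, and interferon response genes are set by STAT and IRF factors.

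To give the sequence context of these programmes, 1 promoter was printed for each of 4 gene groups that the results describe, with a match to the factor's textbook motif in capitals. The windows run from 250 bases before to 50 bases after the gene start, 5′ to 3′ on the gene's strand, from RefSeq on GRCm38.p6. The 4 genes were chosen after their values were seen, as members whose windows hold a match. Hmgcs1 (3-hydroxy-3-methylglutaryl-CoA synthase, an early enzyme of cholesterol synthesis, chr13:119690101-119690400, plus strand) holds the SREBP motif TCACNCCAC, beginning 137 bases before the start. Asns (asparagine synthetase, chr6:7693160-7693459, minus strand) holds TGATGNAA, a motif of ATF4 with C/EBP factors, beginning 23 bases before the start. Hspe1 (the mitochondrial co-chaperonin, chr1:55087898-55088197, plus strand) holds the heat shock element (GAA, any 2 bases, TTC, any 2 bases, GAA), beginning 84 bases before the start. Ifitm2 (an interferon-induced membrane protein, chr7:140955912-140956211, minus strand) holds the interferon response motif (GAAA, any 2 bases, GAAA), beginning 46 bases before the start.
Hmgcs1: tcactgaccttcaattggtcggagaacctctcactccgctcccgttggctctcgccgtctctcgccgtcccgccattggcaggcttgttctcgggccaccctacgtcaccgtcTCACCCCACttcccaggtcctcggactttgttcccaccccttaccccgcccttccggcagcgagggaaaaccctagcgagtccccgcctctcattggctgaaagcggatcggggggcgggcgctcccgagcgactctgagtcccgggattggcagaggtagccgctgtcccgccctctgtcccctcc
Asns: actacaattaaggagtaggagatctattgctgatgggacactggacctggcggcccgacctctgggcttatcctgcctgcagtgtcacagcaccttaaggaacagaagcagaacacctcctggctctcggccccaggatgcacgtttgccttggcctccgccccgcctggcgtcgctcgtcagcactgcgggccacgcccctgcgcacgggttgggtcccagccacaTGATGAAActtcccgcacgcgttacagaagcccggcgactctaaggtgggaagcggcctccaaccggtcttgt
Hspe1: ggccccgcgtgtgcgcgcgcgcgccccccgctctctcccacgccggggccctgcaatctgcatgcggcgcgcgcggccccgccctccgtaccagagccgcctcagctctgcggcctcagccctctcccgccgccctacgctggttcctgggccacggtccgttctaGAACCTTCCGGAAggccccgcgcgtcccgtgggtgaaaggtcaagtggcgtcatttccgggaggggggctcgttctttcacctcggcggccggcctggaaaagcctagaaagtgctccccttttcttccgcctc
Ifitm2: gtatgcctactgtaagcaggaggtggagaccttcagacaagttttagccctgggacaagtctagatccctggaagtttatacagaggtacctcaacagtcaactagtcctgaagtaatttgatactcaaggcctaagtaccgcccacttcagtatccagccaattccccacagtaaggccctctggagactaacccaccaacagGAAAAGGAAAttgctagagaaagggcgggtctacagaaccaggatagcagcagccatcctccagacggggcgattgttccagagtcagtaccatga

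Searched on both strands, these motifs were rare in general and unevenly found in the groups. TGATGNAA stood in the windows of 10 of the 30 tRNA synthetase, ATF4 target and serine-glycine genes that have one, against 252 of all 8561 tested genes with a window (2.94%). The interferon response motif stood in 22 of 33 interferon-stimulated genes and in 330 of all (3.855%). The heat shock element stood in 3 of 27 heat shock and chaperonin genes (Hspd1, Hspe1 and Hsph1) and in 47 of all (0.549%), and the SREBP motif TCACNCCAC in 1 of 23 cholesterol and fatty acid genes and in 117 of all (1.37%). Hspd1 and Hspe1 lie head to head and share the printed match. Among genes higher at day 5, genes lower at day 5 and all tested genes, the STAT5 motif TTCNNNGAA stood in 9.75%, 6.56% and 8.46% of genes with a window, the E-box CACGTG in 10.5%, 15.4% and 11.95%, and the AP-1 motif TGANTCA in 8.215%, 4.64% and 5.61%. The composite NFAT and AP-1 motif (GGAAA, any 4 bases, TGA), which can overlap TGANTCA in its last bases, stood in 2.30%, 0.800% and 1.41%. A gene was counted if any of its windows held a match. Genes higher, genes lower and all tested genes had on average 1.326, 1.227 and 1.275 windows, so the sets had unlike room for a match. A match is a description of letters in a window and not a measured site.

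Levels are given as CPM, a gene's reads scaled to a library of 1000000 reads, from tags at the 3′ ends of polyadenylated transcripts. The WT libraries held 1688313 to 1805320 reads, so that 1 read was worth 0.554 to 0.592 CPM, and between 11257 and 11488 genes had a read. Mitochondrial transcripts took 2.95% to 3.17% of reads at day 5 and 3.18% to 3.22% at day 3, and ribosomal protein transcripts 14.2% to 14.7% at day 5 and 14.95% to 15.4% at day 3. In bulk RNA a lower value can mean fewer cells of a type or less RNA per cell, which cannot be told apart. The cells carried the markers of CD8 T cells at both days. Cd8a stood at 236, 225 and 223 CPM at day 5, against 319, 295 and 353 CPM at day 3, and Cd3e at 157, 192 and 184 CPM at day 5, against 139, 155 and 127 CPM at day 3. Cd4 had 1 read over the day 5 libraries and 3 over the day 3 libraries. Of the 24 myeloid and dendritic markers 19 were too low to be tested, and Csf1r, Adgre1, Cd14, Spi1 and S100a9 had no read. Ms4a1 and Cd79a of B cells and Ncr1 and Zbtb16 of NK and innate-like T cells had none either. Listed T cell receptor and immunoglobulin segments had no read in any library, so they carry no information.

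The main comparison asked which transcripts changed as activated cells were kept in IL-2. Of 25655 genes listed, 10623 reached 1 CPM in at least 3 of the 6 libraries and were tested with limma on log2(CPM + 1), a scale that understates the change of low genes. At a Benjamini-Hochberg adjusted p under 0.05, 1915 genes were called (18.0% of those tested), 1142 higher at day 5 (10.8%) and 773 lower (7.28%). Most changes were small, as 1092 of the called genes changed by less than 1.5-fold, and 247 rose (2.33%) and 81 fell (0.762%) by at least 2-fold. Libraries did not overlap between the days for 3514 tested genes (33.1%), 2044 higher (19.2%) and 1470 lower (13.8%). A lack of overlap was thus more common than a call. The balance of the directions depended on scaling, since 59.6% of calls were higher with CPM but 48.9%, 47.7% and 50.8% with median-of-ratios, TMM and quantile scaling, which shifted the median log2 fold change of all genes from 0.05 to between −0.01 and 0.01. Calls also followed the level. Ranked by mean CPM and divided into 4 classes of equal size, the top class (from 70.2 CPM) had 18.9% of genes higher and 17.9% lower. The bottom class had 4.22% higher and 1.69% lower. The shares of the top class are repeated beside several groups most of whose members lie in it. Without a trend of the prior variance on expression the calls numbered 401 and 195, and the counts under that setting are given below as the counts without the trend. In 8 of the 40 gene groups limma called no member in 1 of the directions, and edgeR and DESeq2 on recovered reads called 0 there as well. At an unadjusted p under 0.05 limma had 1 such NK receptor gene and 1 such proteasome gene, and 0 in the other 6 groups.

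**Figure D1:**
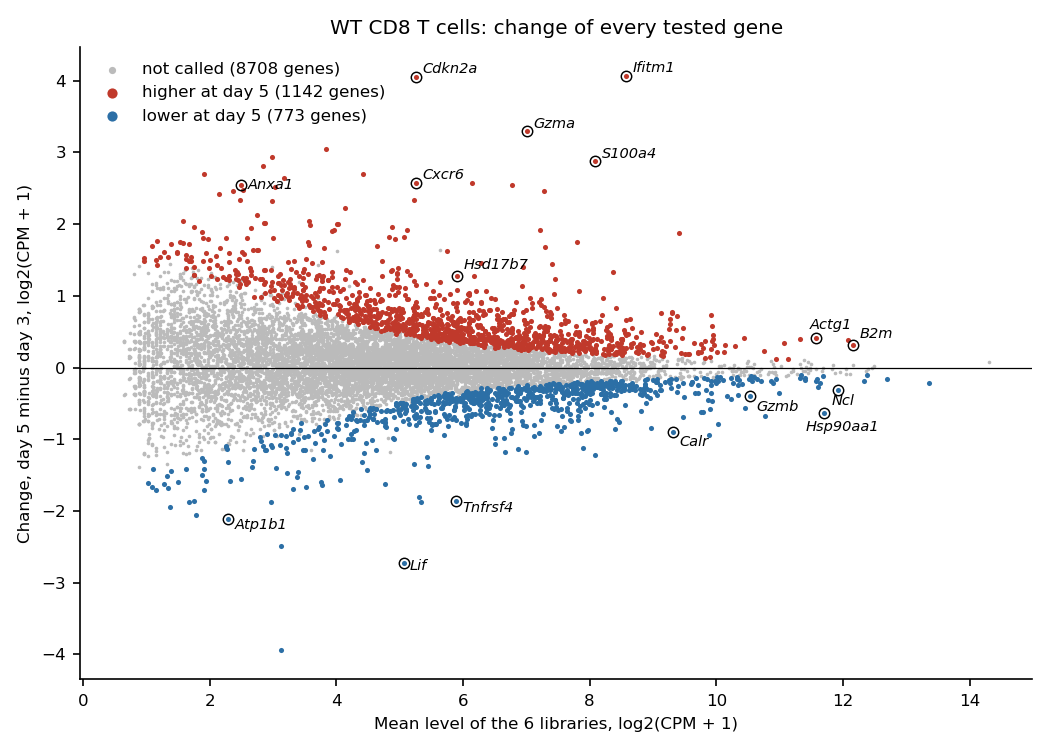
Change between the days against level for the 10623 tested genes, with the mean level of the 6 WT libraries on the x axis and the limma log2 fold change of day 5 minus day 3 on the y axis, both on log2(CPM + 1). Red points are the 1142 genes higher at day 5, blue points the 773 lower genes and grey points genes not called, and Ifitm1 and Cdkn2a stand at the top with changes of 4.07 and 4.05.

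The largest rises combined interferon-inducible, cytotoxic, migratory and calcium-binding genes. The rule for large rises took only called genes whose libraries did not overlap between the days. Their lack of overlap is thus no added result. Ifitm1 (ENSMUSG00000025491, chromosome 7, 140967221 to 140969825, plus strand, GRCm38), whose membrane protein restricts virus entry, stood at 685, 774 and 690.4 CPM in the day 5 libraries, against 42.7, 49.9 and 34.03 CPM in the day 3 libraries. The 3 day 5 libraries lay far above the day 3 libraries, a 16.99-fold difference of means (log2 change 4.07 with SE 0.10 and limma adjusted p = 7.18e-19). Cdkn2a (ENSMUSG00000044303, chromosome 4, 89274471 to 89294653, minus strand), which encodes the inhibitors p16 and p19 and is a textbook target of Polycomb, rose 18.9-fold and averaged 71.2 ± 6.62 CPM at day 5 and 3.77 ± 2.57 CPM at day 3 (SD, n = 3 each, log2 change 4.05 with SE 0.28 and limma adjusted p = 2.28e-10). Gzma, which encodes the granule protease granzyme A (ENSMUSG00000023132, chromosome 13, 113093825 to 113100981, minus strand), held 224, 253 and 221 CPM in the day 5 libraries, against 28.4, 26.03 and 15.9 CPM in the day 3 libraries. It rose 9.92-fold (log2 change 3.29 with SE 0.15 and limma adjusted p = 8.89e-14). S100a4 (ENSMUSG00000001020, chromosome 3, 90603771 to 90606045, plus strand), a calcium-binding protein of motile cells, rose 7.38-fold, with 456, 489 and 489.9 CPM at day 5, against 66.9, 73.7 and 53.9 CPM at day 3 (log2 change 2.88 with SE 0.09 and limma adjusted p = 7.82e-17). Cxcr6 (ENSMUSG00000048521, chromosome 9, 123806475 to 123811760, plus strand), a chemokine receptor of tissue T cells, rose 6.21-fold, with 65.4, 62.98 and 64.98 CPM at day 5, against 6.52, 13.3 and 11.3 CPM at day 3 (log2 change 2.58 with SE 0.21 and limma adjusted p = 2.84e-09).

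Further large rises were of genes with few reads at day 3. Serpina3f, a serine protease inhibitor gene, averaged 24.6 ± 7.58 CPM at day 5 and 2.09 ± 0.852 CPM at day 3 (SD, n = 3 each, log2 fold change 3.05 ± 0.32 SE). Gpr141, an orphan receptor gene, held 35.1, 49.6 and 24.9 CPM at day 5, against 5.33, 3.88 and 4.54 CPM at day 3. Glrp1 held 12.9, 15.1 and 10.7 CPM at day 5, against 0.592, 1.66 and 2.27 CPM at day 3. Anxa1, the gene of annexin A1, stood at 8.56 against 0.752 CPM at day 5 and day 3, and the interferon-inducible Ifit1bl1 at 12.9 against 0.932 CPM. By the rule that chose them, their lowest day 5 library was above their highest day 3 library. The noncoding Snhg4 held 11.1, 10.6 and 11.3 CPM at day 5, against 0, 0 and 3.97 CPM at day 3. Klhl30 had no read at day 3 and 5.02 to 6.21 CPM at day 5, at least 9.63-fold higher when 3 reads over the 3 libraries are taken as the floor. Xcr1, a chemokine receptor gene known from cross-presenting dendritic cells, held 6.43, 8.92 and 7.91 CPM at day 5, against 0.592, 0.554 and 0.567 CPM at day 3, which is 1 read in each day 3 library, so no fold is given. The interferon-inducible GTPase gene Gvin1 was unlike these in its spread, at 229.6, 104 and 30.5 CPM at day 5, against 4.15, 28.8 and 22.7 CPM at day 3, with replicates that lay far apart within each day (log2 change 2.57 with SE 0.50 and limma adjusted p = 0.000696). Its call was lost without the trend, with a robust prior, with DESeq2 and in a fit of all 12 libraries, at adjusted p-values of 0.165, 0.229, 0.0629 and 0.0721.

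The largest falls in proportion were of genes of varied function. Lif (ENSMUSG00000034394, chromosome 11, 4257557 to 4272514, plus strand), the gene of leukaemia inhibitory factor, fell 7.17-fold, with 5.26, 8.92 and 9.61 CPM at day 5, against 47.4, 67.6 and 55.6 CPM at day 3 (log2 change −2.72 with SE 0.22 and limma adjusted p = 3.16e-09). The rule for large falls also took only genes without overlap, so the 3 day 5 libraries lay below the 3 day 3 libraries by choice. Tnfrsf4 (ENSMUSG00000029075, chromosome 4, 156013843 to 156016612, plus strand), the gene of the costimulatory receptor OX40, held 19.9, 27.9 and 25.99 CPM at day 5, against 78.8, 96.9 and 99.8 CPM at day 3, a 3.74-fold fall (log2 change −1.87 with SE 0.14 and limma adjusted p = 1.69e-09). Ak4, a mitochondrial adenylate kinase gene raised by hypoxia, fell 3.82-fold and averaged 16.3 ± 2.54 CPM at day 5 and 62.2 ± 1.81 CPM at day 3 (SD, n = 3 each, log2 fold change −1.88 ± 0.16 SE). Dusp1, a phosphatase of MAP kinases, stood at 4.55 against 16.4 CPM, Csrnp1, an immediate early gene, at 12.5 against 40.1 CPM, and Lrrc17 at 16.9 against 60.6 CPM, with log2 fold changes of −1.67, −1.63 and −1.81. Tgfbr3, the gene of the TGF-β co-receptor betaglycan, held 7.01, 5.57 and 4.52 CPM at day 5, against 21.9, 19.9 and 15.9 CPM at day 3. Dennd5b, Atp1b1, Sdc4, Rangrf, Pex2, Plcxd1 and Ttn completed the list, with means of 1.36 to 7.41 CPM at day 5 and 6.47 to 23.85 CPM at day 3 and log2 fold changes of −2.49 to −1.48. Rpl36a-ps1, named as a pseudogene, whose reads may belong to its parent, had no read at day 5, against 15.5 CPM at day 3, at least 27.3-fold lower against the same floor.

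Ranked by the difference in CPM, the first genes on either side were abundant ones. Tmsb10 (thymosin β10) gained most, with 4938, 4763 and 4927 CPM at day 5, against 3746, 3794 and 3678 CPM at day 3 (log2 change 0.38 with SE 0.03 and limma adjusted p = 6.19e-09), followed by B2m with a mean of 5061 against 4058 CPM at day 5 and day 3. Actg1 (γ-actin) averaged 3467 against 2601 CPM, S100a6 1074 against 291 CPM and Vim (vimentin) 2891 against 2203 CPM. Ifitm1 came next, then Aldoa_1 (the file's entry for aldolase A) with 2405 against 1895 CPM and Id2 with 1207 against 722 CPM. The days did not overlap in any of these genes, a property of 33.1% of all tested genes. Ptma (prothymosin α) lost most, with 9809, 10014 and 9379.8 CPM at day 5, against 11431, 11243 and 11084 CPM at day 3 (log2 change −0.21 with SE 0.03 and limma adjusted p = 1.43e-05). After it came Hsp90aa1 with a mean of 2606 against 4056 CPM, Ncl with 3462 against 4312 CPM, and Hspa8 with 1342 against 2147 CPM. Next were mt-Nd2 with 6268 against 6976 CPM, Rplp1 with 4818 against 5491 CPM, Pim1 with 643 against 1239 CPM and Npm1 with 2822 against 3397 CPM. Of these Pim1, the gene of a kinase induced by STAT5, changed most in proportion, with a log2 fold change of −0.95 ± 0.05 SE.

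**Figure D2:**
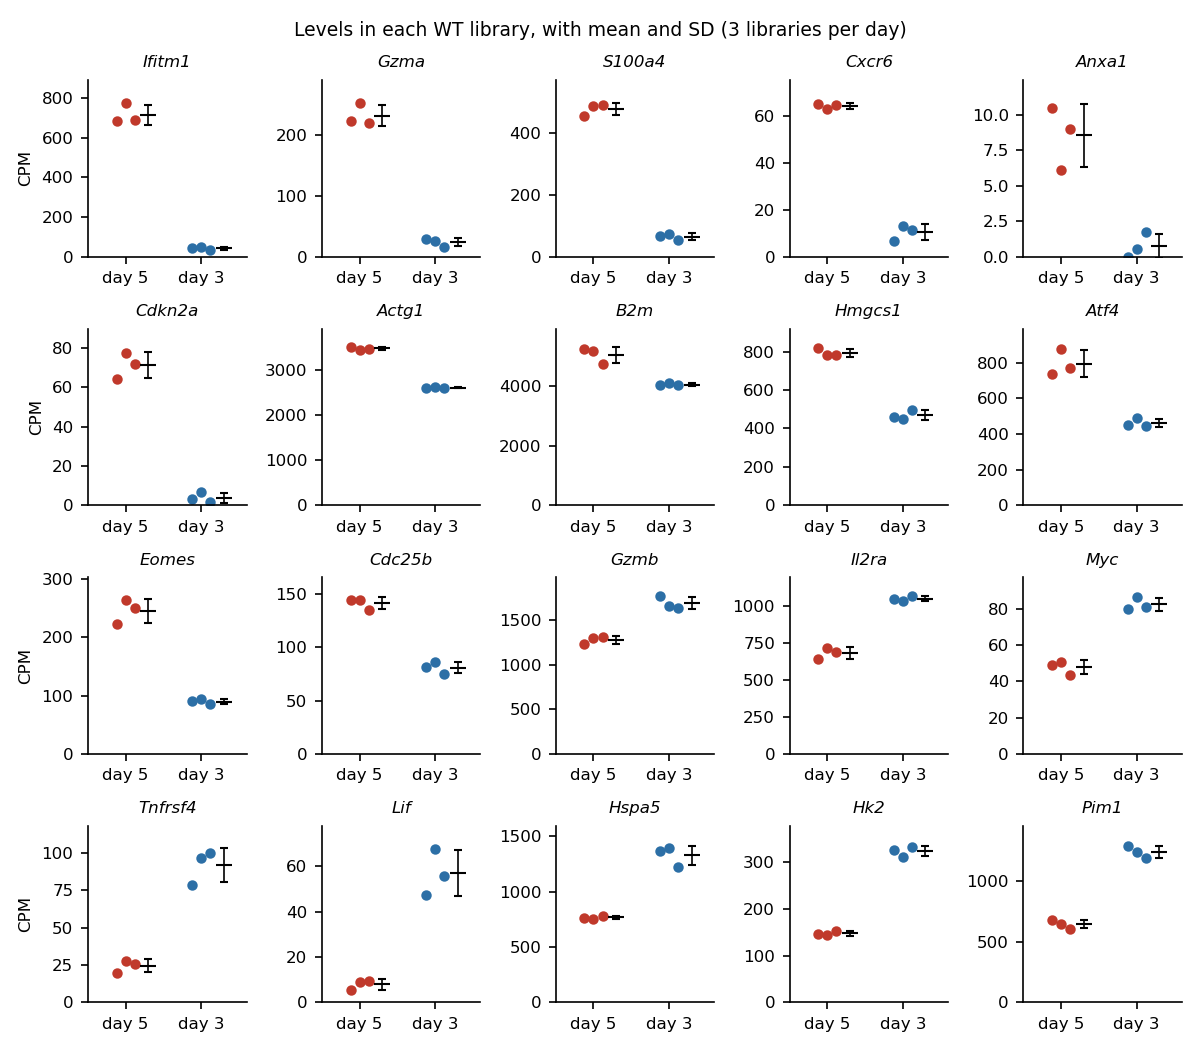
Level of 20 genes in each of the 6 WT libraries, in CPM on axes that start at 0, with day 5 (red) left of day 3 (blue); black marks are the mean and SD of the 3 libraries of a day, cut at 0. In each panel the day 5 libraries lie wholly above (Ifitm1 to Cdc25b) or wholly below (Gzmb to Pim1) the day 3 libraries, a property of 33.1% of all tested genes.

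Killer cell genes rose in part and not as a block. Of 24 tested genes of cytotoxic granules and killing, 10 were higher (41.7%, against 10.8% of all tested genes) and 2 lower, with a median log2 fold change of 0.34 against 0.05 over all tested genes. Apart from Gzma, the minor granzymes Gzmk and Gzmm averaged 10.2 against 2.43 CPM and 5.10 against 0.756 CPM at day 5 and day 3 (limma adjusted p = 0.00312 and 0.00363). Ctsd (cathepsin D) held 219, 228 and 246 CPM at day 5, against 109.6, 125 and 104 CPM at day 3 (log2 change 1.03 with SE 0.08 and limma adjusted p = 3.16e-09). Srgn, whose proteoglycan packs granules, averaged 201 against 116 CPM, and Nkg7, a granule membrane gene, 560.4 against 436 CPM. Gzmb (ENSMUSG00000015437, chromosome 14, 56258838 to 56262260, minus strand), the most abundant granzyme, went the other way, with 1227, 1294 and 1310.3 CPM at day 5, against 1771, 1656 and 1639 CPM at day 3. It fell, with the 3 day 5 libraries below those of day 3 (log2 change −0.40 with SE 0.04 and limma adjusted p = 2.56e-07), together with the granule and endoplasmic reticulum chaperone Calr (log2 fold change −0.90 ± 0.05 SE). Prf1, the gene of the pore-forming perforin, held 40.9, 54.6 and 38.99 CPM at day 5, against 54.5, 57.1 and 44.2 CPM at day 3, with overlapping days (log2 change −0.22 with SE 0.15 and limma adjusted p = 0.358). Of the near copies Gzmd, Gzme, Gzmf and Gzmg, Gzmd had 2 reads at day 5 and 0 at day 3 and the others none. Without the trend the counts were 5 and 1, and DESeq2 on recovered reads called 6 higher.

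S100 proteins, annexins, galectins and cytoskeletal genes formed 1 of the groups with the highest shares of rises. Of 36 tested members 22 were higher (61.1%, against 18.9% in the class of most abundant genes) and 1 was lower, with a median of 0.40 on the log2 scale. S100a6 held 1102, 1047 and 1072 CPM at day 5, against 294, 299.7 and 279 CPM at day 3 (log2 change 1.88 with SE 0.05 and limma adjusted p = 4.60e-18). Lgals3 (galectin 3) held 348, 337 and 337 CPM at day 5, against 94.2, 95.3 and 114 CPM at day 3. Ahnak, the gene of a giant scaffold protein bound by S100a10, held 436, 508 and 477 CPM at day 5, against 184, 202 and 178 CPM at day 3. In both genes the days stood far apart. S100a10, S100a11 and Lgals1 (galectin 1) averaged 485 against 331 CPM, 437 against 246 CPM and 1166 against 781 CPM at day 5 and day 3. Lmna, the gene of the nuclear lamins A and C, averaged 27.8 against 5.30 CPM (log2 change 2.22 with SE 0.27 and limma adjusted p = 1.81e-06). The member that fell was Tuba1b, an α-tubulin gene, with 2863 against 3253 CPM (log2 fold change −0.18 ± 0.04 SE). Without the trend 12 were higher and none lower, and 3 were lower with median-of-ratios and with TMM scaling.

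Among receptors of migration Ccr2 and Cxcr6 rose and the lymph node receptor gene Ccr7 fell. Of 25 tested homing receptors and integrins, 10 were higher and 3 lower. Over all tested genes 10.8% were higher and 7.28% lower. In the class of most abundant genes, to which 10 of the 25 belong, 18.9% were higher and 17.9% lower. Ccr2 (ENSMUSG00000049103, chromosome 9, 124101950 to 124113557, plus strand), a receptor of inflammatory chemokines, held 252, 272 and 263 CPM in the day 5 libraries, against 43.8, 45.4 and 51.04 CPM in the day 3 libraries. It rose 5.61-fold (log2 change 2.47 with SE 0.09 and limma adjusted p = 1.47e-15). The sphingosine phosphate receptor gene S1pr4 held 71.9, 68.00 and 81.4 CPM at day 5, against 31.4, 36.00 and 39.7 CPM at day 3. Itgb1 (integrin β1) held 293, 299 and 292 CPM at day 5, against 201, 212 and 203 CPM at day 3. Itgal, S1pr1, Selplg, Cd44 and Gpr183 were also higher, with log2 fold changes of 0.27 for Selplg to 0.71 for Gpr183. Ccr7, which leads T cells into lymph nodes, held 88.8, 95.9 and 109.6 CPM at day 5, against 151, 129 and 145 CPM at day 3 and fell (log2 change −0.53 with SE 0.10 and limma adjusted p = 0.000314). Ccr4 and the prostaglandin receptor gene Ptger4 fell as well, at 19.5 against 39.02 CPM and 39.6 against 65.7 CPM. Without the trend the counts were 5 and 1.

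Cytokine receptors changed member by member. Il18r1 and Il18rap, which together form the receptor of IL-18, both rose. Il18r1 held 232, 232 and 252 CPM at day 5, against 73.5, 70.9 and 76.6 CPM at day 3 (log2 fold change 1.68 ± 0.08 SE). Il18rap held 83.6, 76.4 and 80.2 CPM at day 5, against 24.3, 20.5 and 32.3 CPM at day 3 (log2 fold change 1.63 ± 0.15 SE). Ifngr1, a chain of the interferon-γ receptor, averaged 198 against 102 CPM, and Ifnar2, of the type I interferon receptor, 113 against 76.1 CPM. On the other side, Il2ra (ENSMUSG00000026770, chromosome 2, 11642807 to 11693193, plus strand), the high-affinity chain of the IL-2 receptor, held 639, 713 and 689.9 CPM in the day 5 libraries, against 1045, 1029.7 and 1063 CPM in the day 3 libraries. The fall, of −0.62 ± 0.05 SE (limma adjusted p = 1.83e-09), left it an abundant transcript. Il2rb, the signalling chain, averaged 816 against 1010.1 CPM. Il7r, the IL-7 receptor chain of naive and memory cells, held 66.02, 74.7 and 57.6 CPM at day 5, against 99.5, 115 and 117 CPM at day 3 (log2 change −0.74 with SE 0.11 and limma adjusted p = 2.82e-05). In all, 7 of 25 tested receptors were higher (28.0%, against 10.8% of all tested genes) and 4 lower (16.0%, against 7.28%). In the class of most abundant genes, to which 10 of them belong, the shares were 18.9% and 17.9%. The 7 became 4 without the trend, with DESeq2 and without day 5 replicate 3.

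Activation receptors and early response genes of receptor stimulation fell in part. Among 25 tested costimulatory and activation receptors 9 were lower (36.0%, against 7.28% of all tested genes) and 1 higher. Besides Tnfrsf4 and Il2ra these included Tfrc, the transferrin receptor gene, with 164, 161 and 158 CPM at day 5, against 313, 301 and 293 CPM at day 3. Icos and Tnfrsf18 (GITR) averaged 175 against 323 CPM and 129 against 229 CPM. The member that rose was Ly6c2, a surface marker of activated and memory CD8 cells, with 720.4, 759 and 786 CPM at day 5, against 467, 481 and 469.6 CPM at day 3 (log2 change 0.67 with SE 0.05 and limma adjusted p = 1.08e-09). Of 30 tested early response genes of the T cell receptor 9 were lower (30.0%) and 2 higher (Dusp2 and Zfp36l1). Junb, an AP-1 subunit, held 128, 135 and 129 CPM at day 5, against 251, 232 and 247 CPM at day 3. Its relative Jund held 1074, 1172 and 1118 CPM at day 5, against 1546, 1495 and 1367 CPM at day 3. Egr1 averaged 8.12 against 19.7 CPM, Nr4a3 5.10 against 11.5 CPM. Fosb had no read at day 5 and 1.19 to 5.10 CPM at day 3, at least 5.63-fold lower. Cd69, Tnfrsf9 and Cd28 were not called, at 16.7 against 23.2 CPM, 658 against 731 CPM and 111 against 92.8 CPM at day 5 and day 3. Without the trend 5 early response genes were lower and none higher.

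The receptor apparatus itself moved the other way in part. Of 24 tested genes of the T cell receptor complex and its coreceptors 9 were higher (37.5%) and 3 lower (12.5%). In the class of most abundant genes, to which 18 of them belong, 18.9% were higher and 17.9% lower. Cd3d held 478, 494 and 485 CPM at day 5, against 412, 388 and 382 CPM at day 3. The adaptor gene Lcp2 (SLP-76) held 198, 193 and 202 CPM at day 5, against 105, 98.04 and 127 CPM at day 3. The kinase gene Fyn averaged 251 against 181 CPM and the phosphatase gene Ptprc (CD45) 1581 against 1184 CPM. Cd8a, Cd8b1 and Themis, a signalling protein of thymocytes and T cells, were lower, at 228 against 323 CPM, 358 against 425 CPM and 181 against 245 CPM. The fall of Cd8a was −0.49 ± 0.07 SE on the log2 scale. This group depended on the setting, with 1 higher and none lower without the trend and 4 higher with DESeq2.

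Among secreted factors and the feedback genes of IL-2 signalling more members were called lower than higher. Of 17 tested cytokines and chemokines 7 were lower (41.2%, against 7.28% of all tested genes) and 3 higher (17.6%, against 10.8%). Osm (oncostatin M) held 21.6, 21.7 and 27.1 CPM at day 5, against 63.97, 58.2 and 64.1 CPM at day 3. Lta (lymphotoxin α) held 198, 277 and 249.7 CPM at day 5, against 421, 485 and 397 CPM at day 3. Ltb, Tnf and Ifng averaged 91.8 against 161 CPM, 13.5 against 28.8 CPM and 2.10 against 5.54 CPM. Ifng, the gene of interferon-γ, was thus low at both days (log2 change −1.14 with SE 0.39 and limma adjusted p = 0.0472), and its call was lost when any library but day 5 replicate 1 was left out. Il16, Spp1 (osteopontin) and Ccl5 were higher, at 62.9 against 46.3 CPM, 6.43 against 1.13 CPM and 28.9 against 19.2 CPM, and this count was 1 without the trend, 1 without day 3 replicate 2 and 0 with DESeq2. Of 24 JAK-STAT mediators and feedback genes 6 were lower and Jak1 was higher. Pim1 held 677, 644 and 609 CPM at day 5, against 1286, 1242 and 1189 CPM at day 3 (log2 change −0.95 with SE 0.05 and limma adjusted p = 1.18e-12). Socs1, an inhibitor of JAK kinases, held 129.7, 152 and 125 CPM at day 5, against 198, 218 and 188 CPM at day 3. Cish, a STAT5 target that dampens cytokine receptors, held 175, 167 and 182 CPM at day 5, against 223, 204 and 254 CPM at day 3. Without the trend 1 was lower and none higher.

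Transcription factors of effector fate were split. Of 23 tested genes 6 were higher (26.1%, against 10.8% of all tested genes) and 5 lower (21.7%, against 7.28%). In the class of most abundant genes, to which 10 of them belong, the shares were 18.9% and 17.9%. Eomes (ENSMUSG00000032446, chromosome 9, 118478212 to 118486132, plus strand), a T-box factor of effector and memory CD8 cells, held 223, 264 and 251 CPM in the day 5 libraries, against 90.6, 93.6 and 85.1 CPM in the day 3 libraries. It rose 2.74-fold with no overlap (log2 change 1.44 with SE 0.08 and limma adjusted p = 8.71e-12). Id2, an inhibitor of E proteins in effector cells, held 1125, 1252 and 1243 CPM at day 5, against 740.4, 739 and 687 CPM at day 3. Runx3, a factor of CD8 lineage and killing, held 567, 642 and 633 CPM at day 5, against 486, 471 and 466 CPM at day 3, and Maf averaged 23.8 against 5.51 CPM. Tbx21, the gene of T-bet, held 51.4, 55.7 and 51.98 CPM at day 5, against 41.5, 31.02 and 40.8 CPM at day 3 (log2 change 0.49 with SE 0.14 and limma adjusted p = 0.0162). The call of Tbx21 was lost without the trend, with DESeq2 and in a fit of all 12 libraries. It was also lost without day 3 replicate 2 or day 5 replicate 2. The members that fell were Irf4, a factor induced by receptor signals, with 64.9, 73.6 and 59.9 CPM at day 5, against 146, 129.6 and 121 CPM at day 3 (log2 change −0.99 with SE 0.10 and limma adjusted p = 2.02e-07), and 4 others. Ikzf2, Batf3, Nfil3 and Tcf3 had log2 fold changes of −0.29 for Tcf3 to −1.02 for Ikzf2. Tcf7, the gene of the memory and stem-like factor TCF-1, held 50.8, 32.9 and 37.3 CPM at day 5, against 35.5, 28.3 and 32.9 CPM at day 3, with overlapping days (log2 change 0.30 with SE 0.17 and limma adjusted p = 0.247). Without the trend 3 were higher and 2 lower.

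Naive, memory and quiescence genes also divided. Of 31 tested naive, memory and stem-like genes 6 were higher (19.4%, against 10.8% of all tested genes) and 7 lower (22.6%, against 7.28%), or 2 and 4 without the trend, with Klf3, Klf2, S1pr1, Gpr183, Satb1 and Eomes on the one side and Ltb, Il7r, Actn1, Ccr7, Myb, Cd27 and Ets1 on the other. Klf2, which drives S1pr1, averaged 58.7 against 30.02 CPM, and Klf3 held 42.1, 38.5 and 56.5 CPM at day 5, against 7.11, 12.2 and 14.7 CPM at day 3 (log2 change 1.95 with SE 0.23 and limma adjusted p = 1.02e-06). Quiescence regulators moved more in 1 direction, with 12 of 25 higher and Klf6 and Kdm5b lower. Slfn1, a Schlafen gene of resting T cells, held 68.9, 77.5 and 94.9 CPM at day 5, against 36.7, 39.9 and 34.6 CPM at day 3 (log2 change 1.09 with SE 0.13 and limma adjusted p = 1.69e-06). Klf13 held 666, 734 and 768 CPM at day 5, against 515, 464 and 509 CPM at day 3, and Txnip, a brake on glucose uptake, averaged 153 against 106 CPM. Without the trend 5 were higher, and with DESeq2 7. Klrg1, the classical marker of short-lived effector cells, had no read in either group, which allows up to 0.569 CPM at day 5 and 0.571 CPM at day 3 as far as counting error goes. Of 10 tested NK receptors and adaptors Hcst, Klrd1, Klrc1 and Cd244a were higher and none lower. The adaptor gene Hcst averaged 67.1 against 34.5 CPM. Klrd1 (CD94) held 69.5, 66.9 and 85.9 CPM at day 5, against 40.9, 40.99 and 56.7 CPM at day 3. Among 17 tested inhibitory receptors and Tox genes Lilrb4a, Klrc1, Cd244a and Tox were higher, at 9.10 against 2.28 CPM, 81.3 against 53.1 CPM, 7.98 against 2.66 CPM and 26.7 against 17.7 CPM, and Vsir (VISTA) was lower, at 56.9 against 77.4 CPM. The 4 higher genes were 23.5% of the group, against 10.8% of all tested genes, and the lower gene 5.88%, against 7.28%. Fewer members, 2, were higher with DESeq2 and without day 5 replicate 1.

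**Figure D3:**
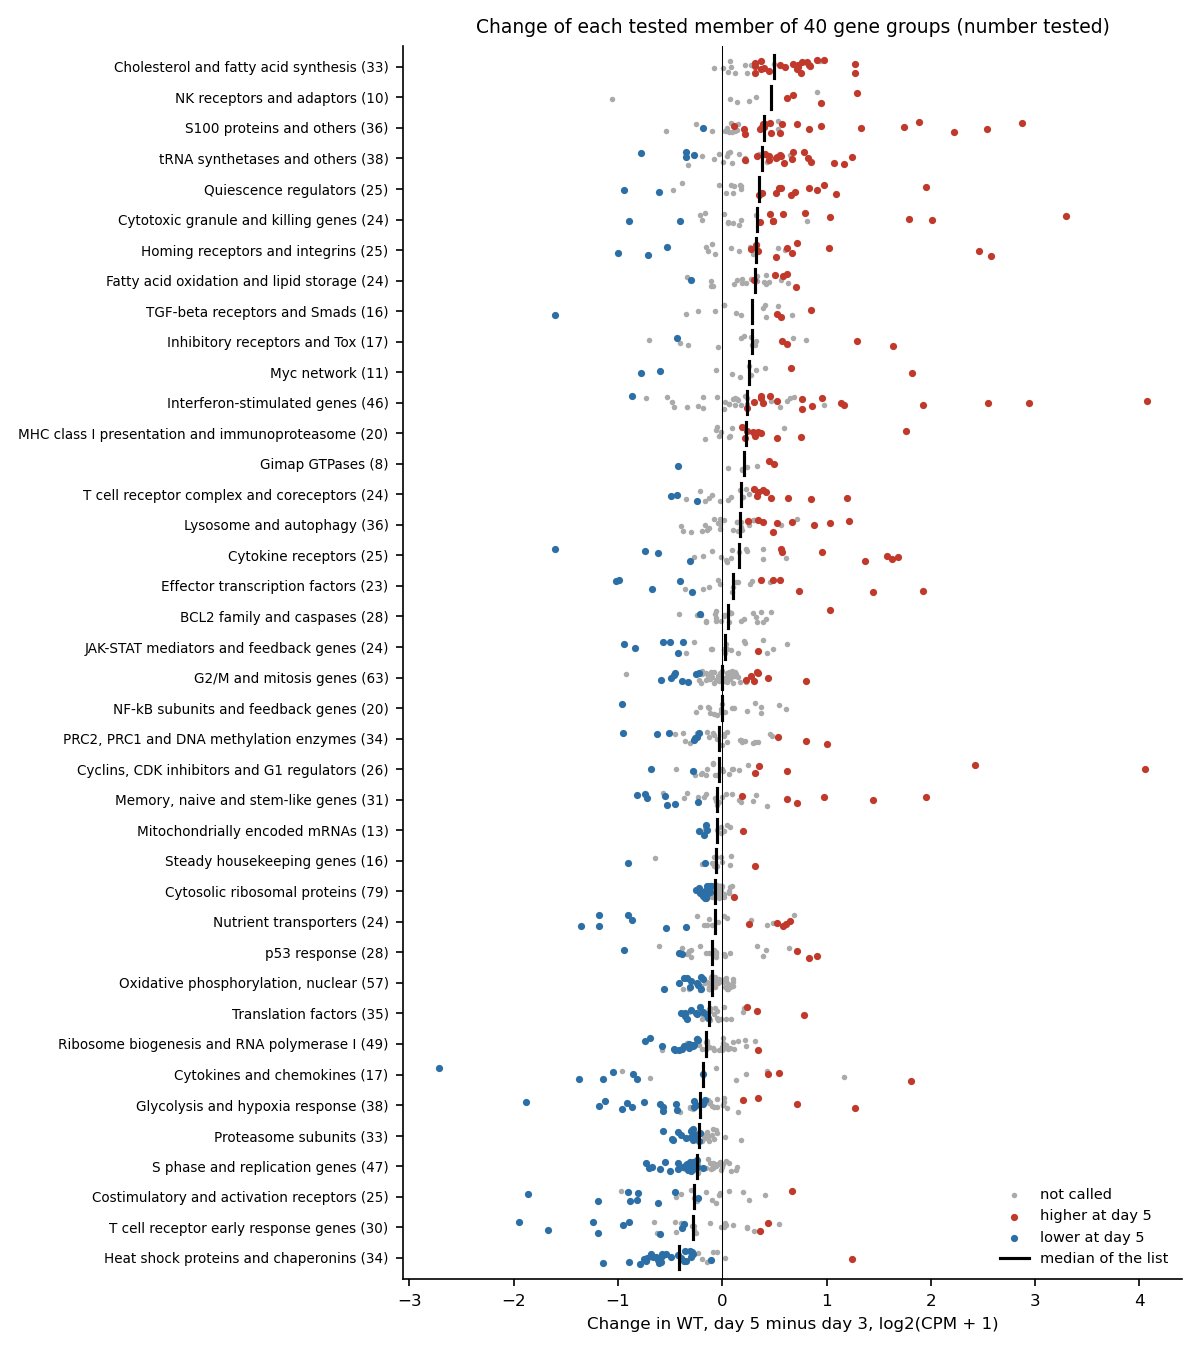
Log2 fold change of day 5 minus day 3 in WT, on log2(CPM + 1), for each tested member of 40 gene groups, ordered by the group's median (black bar), with the number tested in brackets; red points are higher at day 5, blue points lower and grey points not called. The cholesterol and fatty acid genes stand at the top with a median of 0.50 and the heat shock proteins and chaperonins at the bottom with −0.41.

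Sterol and fatty acid synthesis rose together. Of 33 tested genes 22 were higher (66.7%, against 18.9% in the class of most abundant genes) and none was lower, and the median log2 fold change was 0.50. Hmgcs1, whose promoter is printed above, held 818, 782 and 783 CPM in the day 5 libraries, against 462, 449.8 and 497 CPM in the day 3 libraries. The days did not overlap (log2 change 0.76 with SE 0.05 and limma adjusted p = 1.89e-10). Hsd17b7, an enzyme of the late sterol pathway, held 77.7, 84.2 and 89.8 CPM at day 5, against 30.2, 37.7 and 34.6 CPM at day 3. Msmo1, of the same stretch, held 154, 159 and 131 CPM at day 5, against 77.00, 73.7 and 83.4 CPM at day 3. Scd1, which desaturates fatty acids, held 182, 174 and 166 CPM at day 5, against 102, 104 and 87.3 CPM at day 3, again without overlap. Idi1, Cyp51, Fdps, Sqle and Fdft1 averaged 117 against 65.99 CPM, 382 against 253 CPM, 208 against 123 CPM, 115 against 70.5 CPM and 60.5 against 30.7 CPM at day 5 and day 3. The count was 12 without the trend and 2 with a 2-fold minimum. Fatty acid oxidation and lipid storage genes had a median log2 fold change of 0.32, with 19 of 24 above 0. Called higher were 5 of them (20.8%, against 10.8% of all tested genes), namely Plin3, Acadl, Acads, Pnpla2 and Acaa1a. This count was 0 without the trend and 1 with DESeq2. It was 3 with quantile scaling, in a fit of all 12 libraries or without day 5 replicate 3. Fabp5 was lower, at 212 against 261 CPM.

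Genes of amino acid supply rose in part as well. Of 38 tested tRNA synthetase, ATF4 target and serine-glycine genes 18 were higher (47.4%) and 4 lower (10.5%). In the class of most abundant genes, to which 22 of them belong, the shares were 18.9% and 17.9%. Atf4 (ENSMUSG00000042406, chromosome 15, 80255184 to 80257541, plus strand) held 737, 881 and 769 CPM in the day 5 libraries, against 451, 489.7 and 446 CPM in the day 3 libraries. It rose 1.72-fold (log2 change 0.78 with SE 0.06 and limma adjusted p = 1.69e-09). Nars, the asparaginyl tRNA synthetase, held 495, 443 and 466 CPM at day 5, against 277, 295 and 310.2 CPM at day 3, and Sars, the seryl enzyme, 522, 499 and 441 CPM at day 5, against 304, 299 and 307 CPM at day 3. Asns, whose promoter is printed above, held 71.3, 69.7 and 44.1 CPM at day 5, against 30.8, 24.4 and 30.1 CPM at day 3 (log2 change 1.07 with SE 0.17 and limma adjusted p = 6.03e-05). Trib3 and Mthfd2 averaged 57.8 against 25.2 CPM and 351 against 263 CPM. Ddit3_1, the file's entry for the stress factor CHOP, held 50.3, 44.03 and 34.5 CPM at day 5, against 17.2, 19.9 and 15.3 CPM at day 3. The members that fell were the synthetases Farsa and Rars and the folate enzymes Mthfd1 and Shmt1, with log2 fold changes of −0.27 for Rars to −0.78 for Mthfd1. Without the trend the counts were 9 and 1, and 2 were lower in a fit of all 12 libraries. Among 24 nutrient transporters 5 were higher, the amino acid transporter genes Slc7a1, Slc38a2, Slc1a5, Slc7a5 and Slc3a2, with Slc7a1 at 248, 231 and 261 CPM at day 5, against 157, 157 and 154 CPM at day 3. The other 7 called members were lower, among them the zinc transporter gene Slc39a10 (20.1 against 52.8 CPM). The transporters were thus 20.8% higher and 29.2% lower, against 18.9% and 17.9% in the class of most abundant genes, to which 14 belong.

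Genes of glucose use fell in part. Of 38 tested glycolysis and hypoxia response genes 17 were lower (44.7%) and 4 higher (10.5%), and the median was −0.22. In the class of most abundant genes, to which 26 of them belong, 17.9% were lower and 18.9% higher. Hk2 (ENSMUSG00000000628, chromosome 6, 82725025 to 82774454, minus strand), hexokinase 2, held 146, 144 and 154 CPM in the day 5 libraries, against 326, 312 and 333 CPM in the day 3 libraries. It fell 2.19-fold without overlap (log2 change −1.12 with SE 0.07 and limma adjusted p = 2.03e-11). The glucose transporter gene Slc2a1 held 65.4, 58.5 and 59.9 CPM at day 5, against 135, 141 and 144 CPM at day 3. Its relative Slc2a3 held 78.3, 76.4 and 76.3 CPM at day 5, against 177, 177 and 174 CPM at day 3. The lactate exporter gene Slc16a3 held 164, 192 and 178 CPM at day 5, against 334, 332 and 309 CPM at day 3. The days did not overlap in these 3 transporters. Pgam1, a glycolytic mutase, averaged 1126 against 1672 CPM, and Pfkl, Egln3 and Pfkfb3 101 against 190.1 CPM, 93.6 against 183 CPM and 35.8 against 60.2 CPM. The members that rose were Aldoc, Aldoa_1, Bnip3l and Anxa2, with Aldoc at 96.4, 100.3 and 107 CPM at day 5, against 37.3, 38.2 and 49.3 CPM at day 3. The counts without the trend were 10 lower and 2 higher. Nuclear genes of oxidative phosphorylation changed less, with 11 of 57 lower (19.3%, against 17.9% in the class of most abundant genes), led by Atp5g1, Uqcr10, Atp5g3 and Ndufa2 (log2 fold changes of −0.20 to −0.41), and none higher. That count of 11 was 0 without the trend, 4 in a fit of all 12 libraries and 7 without day 3 replicate 2 or day 5 replicate 2. Among 13 mitochondrially encoded mRNAs mt-Co1, mt-Nd2, mt-Nd5 and mt-Co2 were lower (log2 fold changes of −0.15 to −0.22) and mt-Nd3 was higher (0.20). None of these was called without the trend, the 4 falls were not called in a fit of all 12 libraries, 2 members were lower without day 5 replicate 3, and the median was −0.05 with CPM and 0.03 with quantile scaling.

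Genes of protein folding had the highest share of falls among the 40 groups. Of 34 tested heat shock proteins and chaperonins 26 were lower (76.5%, against 17.9% in the class of most abundant genes) and 1, Ddit3_1, was higher, with a median of −0.41. Hsp90aa1 (ENSMUSG00000021270, chromosome 12, 110690605 to 110702728, minus strand), the inducible HSP90, held 2578, 2613 and 2627 CPM in the day 5 libraries, against 3979, 4041 and 4149.6 CPM in the day 3 libraries. The days stood far apart (log2 change −0.64 with SE 0.03 and limma adjusted p = 1.52e-12). Hspa8, the constitutive HSP70, held 1409, 1266 and 1349.8 CPM at day 5, against 2165, 2133 and 2144 CPM at day 3. Hspa5, the main chaperone of the endoplasmic reticulum, held 761, 756 and 783 CPM at day 5, against 1365, 1390.3 and 1226 CPM at day 3. Hspd1 and Hspe1, which share the printed promoter match, averaged 696 against 1065 CPM and 261 against 430 CPM, and Hsph1 had the largest fall of the group at 72.3 against 161 CPM (log2 fold change −1.14 ± 0.09 SE). The count was 15 without the trend and 1 with a 2-fold minimum. Of 33 proteasome subunits 16 were lower (48.5%, against 17.9% in the class of most abundant genes) and none higher. Psmc5 held 64.9, 65.2 and 72.3 CPM at day 5, against 97.1, 104 and 101 CPM at day 3, and Psmb7 155, 161 and 171 CPM at day 5, against 214, 234 and 205 CPM at day 3. The count was 2 without the trend and 7 in a fit of all 12 libraries.

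Among genes of protein synthesis the members that fell did so by small amounts, and most members were not called. Of 49 tested genes of ribosome biogenesis and RNA polymerase I 15 were lower (30.6%, against 17.9% in the class of most abundant genes) and Polr1f was higher. Ncl (nucleolin) held 3449, 3443 and 3494 CPM at day 5, against 4393, 4364 and 4178 CPM at day 3 (log2 change −0.32 with SE 0.03 and limma adjusted p = 2.03e-07). Npm1 (nucleophosmin) held 2924, 2711 and 2832 CPM at day 5, against 3324, 3353 and 3513 CPM at day 3. Gar1 and Mybbp1a had log2 fold changes of −0.46 ± 0.08 SE and −0.36 ± 0.06 SE. The count of 15 was 7 in a fit of all 12 libraries and 1 without the trend. Of 79 cytosolic ribosomal proteins 18 were lower (22.8%, near the 17.9% of the class of most abundant genes), with small log2 fold changes such as −0.19 for Rplp1, and Fau was higher (0.11). This count was 36 with median-of-ratios scaling, with TMM and with edgeR, 33 with DESeq2, 3 in a fit of all 12 libraries, 11 without day 3 replicate 1, day 3 replicate 3 or day 5 replicate 3 and 0 without the trend. Among 35 translation factors 11 were lower (31.4%, against the same 17.9%) and 3 higher, with Eif5a at 996 against 1311 CPM and Eif4g1 at 713 against 912 CPM. Eif4ebp1, the gene of a brake on cap-dependent translation, rose with Eif1 and Eif2s2, at 98.7, 103 and 98.3 CPM at day 5, against 59.2, 49.9 and 64.1 CPM at day 3. The 11 became 18 with TMM, 17 with edgeR, 7 without day 3 replicate 2 or day 5 replicate 3, 4 in a fit of all 12 libraries and 0 without the trend. In the Myc network Myc held 49.1, 50.7 and 43.5 CPM at day 5, against 79.96, 86.4 and 81.1 CPM at day 3 (log2 change −0.78 with SE 0.11 and limma adjusted p = 2.18e-05). The Myc antagonists were divided, with Mxd4 and Mnt higher and Mxi1 lower. In all, 2 of 11 tested members were higher and 2 lower (18.2% each, against 10.8% and 7.28% of all tested genes). The call of Mnt was lost with DESeq2 and in a fit of all 12 libraries. It was also lost without day 3 replicate 1 or 2 and without day 5 replicate 1 or 2. Mxd4 held 39.2, 46.8 and 43.5 CPM at day 5, against 12.4, 8.86 and 13.6 CPM at day 3. Ezh2 itself averaged 314 ± 6.72 CPM at day 5 and 379.8 ± 26.7 CPM at day 3 (SD, n = 3 each, log2 change −0.27 with SE 0.06 and limma adjusted p = 0.00295). The call of Ezh2 was lost without the trend and in a fit of all 12 libraries, at limma adjusted p-values of 0.147 and 0.253. In its group of PRC2, PRC1 and DNA methylation genes 7 of 34 were lower (20.6%) and Jarid2, Tet3 and Phf1 higher (8.82%). These shares were 7.28% and 10.8% over all tested genes, and 17.9% and 18.9% in the class of most abundant genes. The 7 became 3 in a fit of all 12 libraries and 1 without the trend.

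Replication genes fell in part. Of 47 tested S phase genes 21 were lower (44.7%, against 17.9% in the class of most abundant genes) and none higher. Rrm2, a subunit of ribonucleotide reductase, held 143, 155 and 139 CPM at day 5, against 230.4, 234 and 232 CPM at day 3 (log2 change −0.67 with SE 0.07 and limma adjusted p = 3.37e-07). Cdc6, which loads the replicative helicase, held 78.9, 85.8 and 73.5 CPM at day 5, against 127, 129 and 142 CPM at day 3. The helicase subunits Mcm2 and Mcm7 averaged 146 against 207 CPM and 738 against 942 CPM. The count was 3 without the trend. Of 63 G2/M genes 7 were higher (11.1%) and 8 lower (12.7%), against 18.9% and 17.9% in the class of most abundant genes, to which 47 of them belong, and their median was 0.002 and changed sign with each of the 3 scalings. Cdc25b, a phosphatase that starts mitosis, held 145, 145 and 135 CPM at day 5, against 81.7, 85.9 and 75.4 CPM at day 3. Mki67, the gene of the proliferation marker Ki-67, held 1022, 909 and 959 CPM at day 5, against 771, 804 and 811 CPM at day 3 (log2 change 0.27 with SE 0.05 and limma adjusted p = 0.000266). Top2a, at 2961, 2909 and 2931 CPM at day 5, against 2824, 2805 and 2892 CPM at day 3, was not called (log2 change 0.05 with SE 0.03 and limma adjusted p = 0.399). The count of 8 lower was 5 without day 5 replicate 2 or day 5 replicate 3, 3 in a fit of all 12 libraries and 1 without the trend. Among 26 cyclins, inhibitors and G1 regulators the inhibitor genes Cdkn2a, Cdkn2b and Cdkn1b and the drivers Cdk6 and E2f2 were higher. They were 19.2% of the group, against 10.8% of all tested genes, and lower members were 7.69%, against 7.28%. The count of 5 higher was 3 without the trend, with DESeq2 and without day 5 replicate 1 or day 5 replicate 2. Ccnd3, a D cyclin gene, was lower, with 519, 579 and 530 CPM at day 5, against 862, 868 and 885 CPM at day 3 (log2 change −0.68 with SE 0.05 and limma adjusted p = 8.05e-10), as was Cdc25a. Cdkn2b held 8.76, 6.13 and 4.52 CPM at day 5, against 0.592, 0 and 0.567 CPM at day 3, with 2 reads over the day 3 libraries, so no fold is given. Of 28 p53 response genes 3 were higher (Trp53inp1, Btg2 and Sesn1) and 3 lower (Mdm2, Plk3 and Gtse1), 10.7% each against 10.8% and 7.28% of all tested genes. The 3 higher became 1 without the trend, with DESeq2 or without day 5 replicate 3. The 3 lower became 1 without the trend, without a filter or without day 3 replicate 1 or day 3 replicate 3, 0 with DESeq2 or without day 5 replicate 1, and 5 or 6 with other scalings and edgeR. Of 28 BCL2 family and caspase genes 1 was higher and 1 lower (3.57% each, against 10.8% and 7.28% of all tested genes). The higher one was Bcl2l11, the gene of the death promoter BIM. It held 93.5, 90.9 and 84.8 CPM at day 5, against 51.5, 39.9 and 39.7 CPM at day 3 (log2 change 1.03 with SE 0.12 and limma adjusted p = 1.23e-06).

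Interferon-inducible and antigen presentation genes rose in part. Of 46 tested interferon-stimulated genes 17 were higher (37.0%, against 10.8% of all tested genes) and Gbp5 was lower (2.17%, against 7.28%). Ifitm2 (ENSMUSG00000060591, chromosome 7, 140954837 to 140955987, minus strand), whose promoter is printed above, held 172, 191 and 194 CPM in the day 5 libraries, against 29.02, 31.6 and 31.8 CPM in the day 3 libraries. It rose 6.02-fold (log2 change 2.55 with SE 0.10 and limma adjusted p = 1.26e-14). Its neighbour Ifitm3 held 225, 219 and 262 CPM at day 5, against 63.97, 59.3 and 60.1 CPM at day 3. Iigp1, an immunity-related GTPase gene, held 157, 147 and 199 CPM at day 5, against 72.9, 77.6 and 74.9 CPM at day 3. The Ifitm genes are close copies, and reads may be divided among them in an unknown way. Core members were not called, with Isg15 at 10.2 against 15.04 CPM and Ifit1 at 2.07 against 1.53 CPM at day 5 and day 3. Of the 22 members with the interferon response motif in their windows, 9 were higher and 1 lower, and Ifitm1 has no match in its window. The count was 8 without the trend. Of 20 genes of MHC class I presentation 11 were higher (55.0%, against 18.9% in the class of most abundant genes) and none lower. B2m, the shared light chain, held 5259.6, 5175 and 4747 CPM at day 5, against 4029.5, 4103 and 4040.1 CPM at day 3 (log2 change 0.32 with SE 0.04 and limma adjusted p = 7.73e-07). The heavy chain genes H2-K1, H2-D1 and H2-Q7 averaged 1243 against 1002 CPM, 1377 against 1121 CPM and 702 against 414 CPM. H2 genes are near copies too. This count was 2 without the trend, 5 with DESeq2 and 7 in a fit of all 12 libraries. Of 36 lysosome and autophagy genes 9 were higher, among them Ctsd, Npc2 and Sqstm1, against 4 without the trend, 3 with DESeq2 and 5 without day 3 replicate 1, day 3 replicate 2 or any of the day 5 libraries.

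The remaining groups and marker lists had few tested or called members. Over all tested genes 10.8% were higher and 7.28% lower. Of 20 NF-kB genes Nfkbiz was lower, at 3.78 against 8.18 CPM, and of 8 Gimap GTPases Gimap4 and Gimap6 were higher and Gimap7 lower. Among 16 TGF-β receptors and Smads Smad7, Ski and Tgfbr2 were higher and Tgfbr3 lower. Of 9 CD8 T cell identity genes 3 were higher (Cd3d, Cd3e and Cd247) and 3 lower (Cd8a, Cd8b1 and Thy1). Of 6 tested CD4 T cell genes Zbtb7b was higher and Izumo1r lower. Of 16 genes chosen as steady, B2m was higher and Tfrc and Rpl13a lower. Marker lists of other cells were mostly untested for lack of reads, and none of their tested genes was lower. Of 5 tested myeloid and dendritic markers H2-Ab1 and Xcr1 were higher, of 4 NK, γδ and innate-like markers Eomes and Mr1, and of 4 erythroid markers Hba-a1. The single tested genes of B cells and stroma, Cd79b and Pecam1, were not called. The summed level of the myeloid and dendritic list was 223 to 232 CPM at day 5 and 159 to 205 CPM at day 3, carried by Ctss, Cst3 and H2-Ab1. That of the NK, γδ and innate-like list was 240.1 to 277 CPM at day 5 and 94.1 to 102 CPM at day 3, carried by Eomes, which effector CD8 cells share. That of the erythroid list was 10.7 to 22.8 CPM at day 5 and 5.33 to 17.7 CPM at day 3. H2-Ab1 rose, at 61.8 against 42.3 CPM, while its partner genes H2-Aa and H2-Eb1 had 1 and 2 reads over the day 5 libraries and 1 and 3 reads over the day 3 libraries. Whether other cells contributed to the changes was not tested beyond these values.

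The second comparison asked whether the day change of WT cells differed from that of KO cells, by the genotype by day interaction in a limma fit of all 12 libraries (WT change minus KO change). Ezh2 held 306, 319 and 316 CPM at day 5, against 357, 374 and 409 CPM at day 3 in WT, and stood at 159, 283 and 161 CPM in KO at day 5, against 377, 334 and 311 CPM in KO at day 3. The KO libraries thus held reads of Ezh2, overlapping with WT at day 3 and below WT at day 5, where replicate 2 was nearest to WT. Which part of the gene is affected is not given in the labels, and 3′ tags outside that part would not check them. KO day 5 replicate 2 differed from its 2 partners by 5.38 and 5.21 times the counting error (chi-square over its degrees of freedom), while every other replicate pair of the series reached at most 2.45, and counts without it are given beside those with it. Of 11173 tested genes 1476 were called (13.2%), 1016 with the WT change above the KO change (9.09%) and 460 below (4.12%), and 1230 and 533 without that library. Above-KO calls made up 68.8% with CPM and 54.6% with median-of-ratios scaling, which shifted the median interaction of all genes from 0.11 to 0.01. KO cells themselves had 4012 genes called between the days (35.9%), 1760 higher at day 5 (15.8%) and 2252 lower (20.2%), or 1720 and 2199 without that library. Of the 1142 genes higher at day 5 in WT, 622 were called in the same direction in KO and 63 in the opposite one, and of the 773 lower genes 577 and 27. Without KO day 5 replicate 2 these were 626 and 69, and 578 and 30. The interaction was called for 539 of the 1915 WT calls (28.1%) and for 10.3% of the tested genes not called in WT, or for 656 and 12.3% without that library, in fits that share the WT libraries.

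Cell cycle genes gave the widest gap. In WT the median G2/M gene changed by 0.002 and the median S phase gene by −0.24, against −1.11 and −1.27 in KO. The interaction was positive and called for 58 of 63 G2/M genes and 39 of 47 S phase genes, and for 58 and 40 without KO day 5 replicate 2. Over all tested genes it was positive and called for 9.09% in the fit of all 12 libraries. Mki67, whose WT values are given above, stood at 383, 439 and 425 CPM in KO at day 5, against 930.3, 913 and 846 CPM in KO at day 3 (interaction 1.38 ± 0.10 SE, limma adjusted p = 2.66e-08). Top2a, not called in WT, stood at 1078, 969 and 1109 CPM in KO at day 5, against 2164, 2334 and 2292 CPM in KO at day 3 (interaction 1.15 ± 0.09 SE, limma adjusted p = 7.61e-08). Tuba1b stood at 1035, 956 and 1027 CPM in KO at day 5, against 2849, 2787 and 2536 CPM in KO at day 3 (interaction 1.25 ± 0.09 SE, limma adjusted p = 2.66e-08). In these 3 genes the KO day 5 libraries lay far below all other libraries. Cdkn2a, whose KO libraries were high at both days, had 806, 708 and 697 CPM in KO at day 5, against 517, 469 and 567 CPM in KO at day 3 (interaction 3.54 ± 0.31 SE, limma adjusted p = 2.01e-07).

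The biosynthetic groups with median changes above 0 in WT had median changes below 0 in KO. Beside the counts below, the interaction was called and positive for 9.09% of all tested genes and negative for 4.12%, with all 12 libraries. The cholesterol and fatty acid genes had a median change of 0.50 in WT and −0.28 in KO, with the interaction called and positive for 23 of 33 genes, or 24 without KO day 5 replicate 2. For the tRNA synthetase, ATF4 target and serine-glycine genes the medians were 0.38 in WT and −0.33 in KO, with 21 of 38 positive and 1 negative, or 22 and 1 without that library. Hmgcs1 stood at 374, 302 and 417 CPM in KO at day 5, against 407, 434 and 493 CPM in KO at day 3 (interaction 1.05 ± 0.14 SE, limma adjusted p = 2.25e-05). Nars had an interaction of 1.05 ± 0.12 SE, limma adjusted p = 4.71e-06. Chaperones and proteasome subunits had median changes below 0 in both genotypes, nearer to 0 in WT, with medians of −0.41 and −0.22 in WT against −0.98 and −0.68 in KO, and the interaction was called and positive for 22 of 34 and 20 of 33, or 25 and 23 without that library. For Hspa8, Il2ra, Gzmb and Myc the interaction was not called, with values of 0.06, 0.10, 0.10 and −0.07 and limma adjusted p-values of 0.786, 0.655, 0.789 and 0.890.

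**Figure D4:**
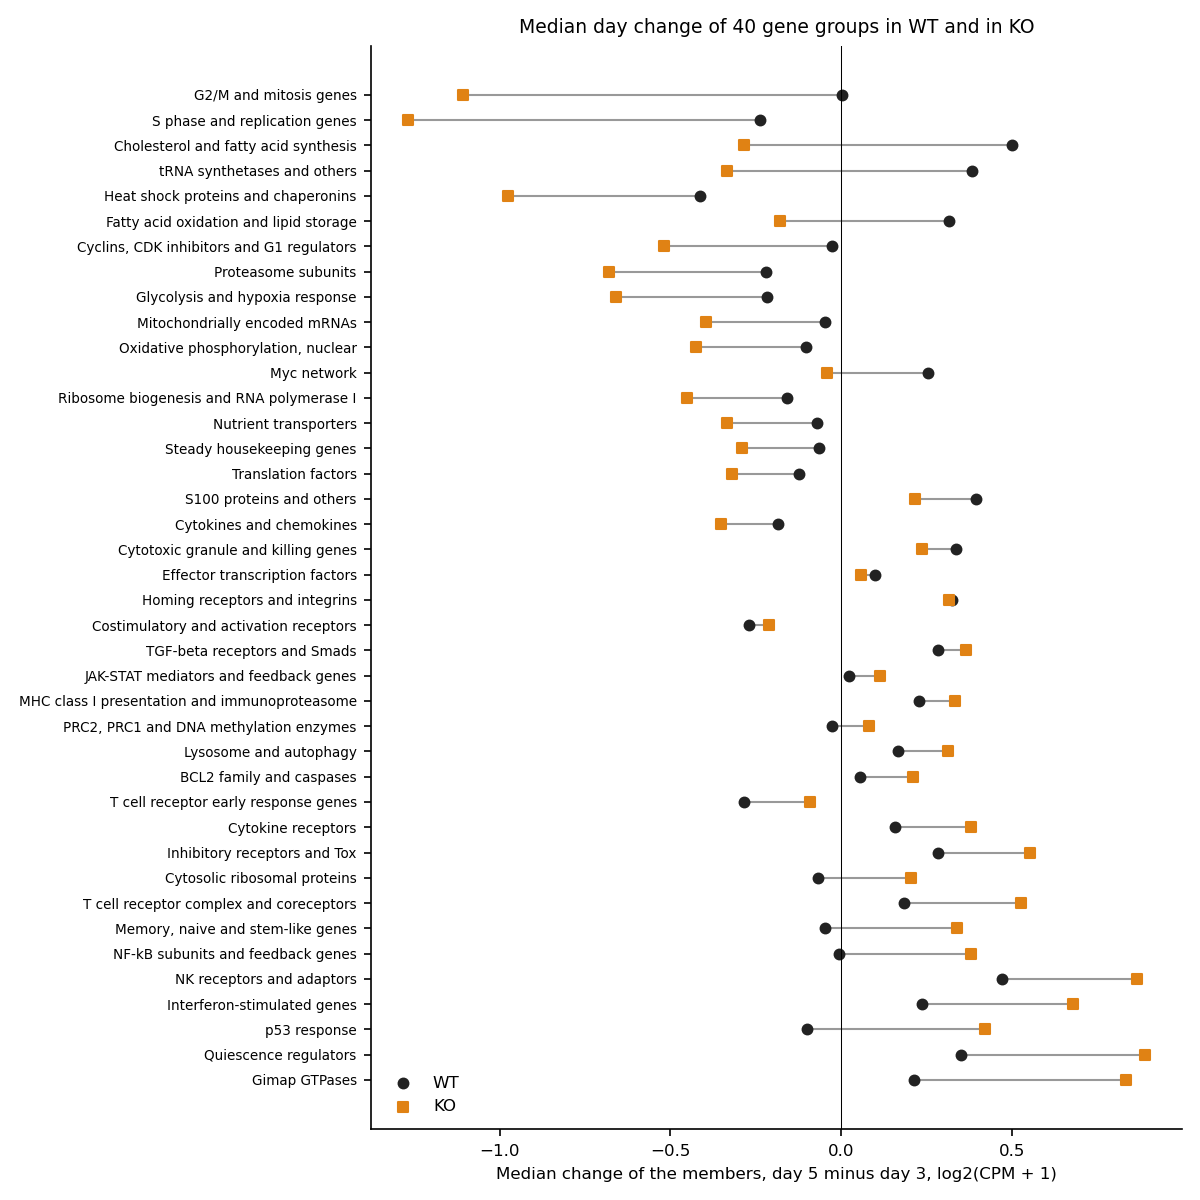
Median log2 fold change of day 5 minus day 3, on log2(CPM + 1), of the tested members of 40 gene groups in WT (black circles) and in KO (orange squares), ordered by the difference. G2/M genes differ most, at 0.002 in WT and −1.11 in KO, and Gimap GTPases lie at the other end, at 0.21 and 0.83.

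Quiescence regulators and Gimap genes had lower median changes in WT than in KO. Quiescence regulators had medians of 0.35 in WT and 0.89 in KO, with 10 of 25 interactions called and negative, or 14 without KO day 5 replicate 2. With all 12 libraries 4.12% of all tested genes had a called and negative interaction. Btg1, an antiproliferative gene, held 124, 142 and 124 CPM at day 5, against 126, 122 and 117 CPM at day 3 in WT. It held 1200.3, 1186 and 1196 CPM in KO at day 5, against 187, 169 and 242 CPM in KO at day 3 (interaction −2.51 ± 0.15 SE, limma adjusted p = 5.05e-10). Gimap GTPases had 6 of 8 negative, with and without that library, with Gimap3 at 199.9, 202 and 190.2 CPM in KO at day 5, against 62.7, 57.3 and 63.5 CPM in KO at day 3 (interaction −1.44 ± 0.15 SE, limma adjusted p = 1.45e-06). Cytosolic ribosomal proteins had 36 of 79 negative, or 49 without KO day 5 replicate 2. Ifi27l2a, an interferon-inducible gene, held 127, 98.7 and 107 CPM at day 5, against 124, 124 and 129 CPM at day 3 in WT, with overlapping days. It held 151, 212 and 134 CPM in KO at day 5, against 42.3, 37.9 and 30.1 CPM in KO at day 3 (interaction −2.31 ± 0.21 SE, limma adjusted p = 2.59e-07). Tcf7 had an interaction of −1.56 ± 0.26 SE, limma adjusted p = 0.000303, and Il7r of −1.59 ± 0.20 SE, limma adjusted p = 1.39e-05. Of 46 interferon-stimulated genes the interaction was called and positive for 6 and negative for 8, with and without KO day 5 replicate 2. These stand beside 9.09% positive and 4.12% negative over all tested genes with all 12 libraries. Ifitm1 and Ifitm2 were among the positive interferon-stimulated genes, with interactions of 2.61 ± 0.15 SE, limma adjusted p = 5.05e-10, and of 1.96 ± 0.16 SE, limma adjusted p = 6.17e-08. Ifitm1 held 2542, 2616 and 2687 CPM in KO at day 5, against 909.9, 859 and 1091 CPM in KO at day 3. Ifitm2 held 293, 356 and 321 CPM in KO at day 5, against 197, 195 and 256 CPM in KO at day 3, so that the KO libraries stood higher than the WT libraries at both days.

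**Figure D5:**
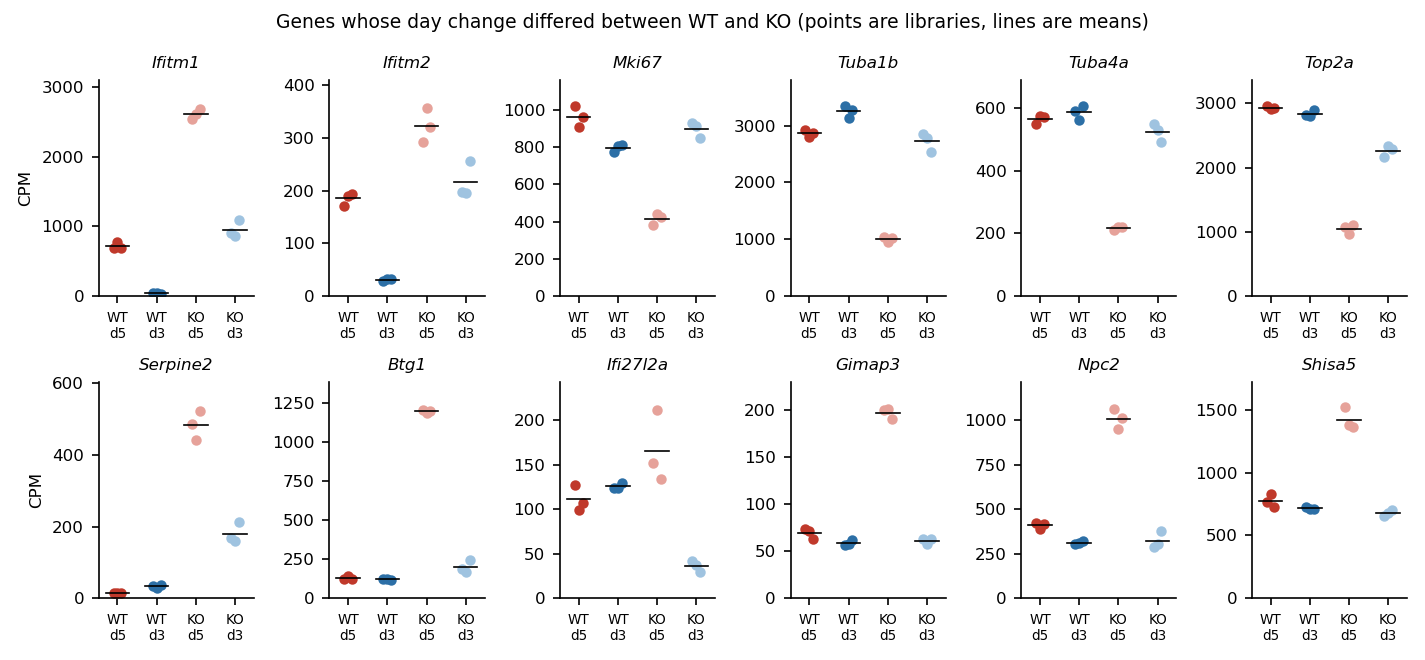
Level in CPM of the 12 genes with the lowest adjusted p of the interaction, 6 with the WT change above the KO change (top) and 6 below (bottom), in each of the 12 libraries, with WT day 5, WT day 3, KO day 5 and KO day 3 from left to right; points are libraries and lines the means of 3. WT levels of Top2a, Btg1 and Gimap3 lie close together at both days, while KO levels of Top2a are lower, and those of Btg1 and Gimap3 higher, at day 5.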

How the data were processed

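RNA of 12 libraries was measured by 3′ tag sequencing (QuantSeq) from 500 ng of total RNA, and the deposited values are CPM in the files as the authors made them, although the files are named for TPM: the values of a library add up to 1000000, and whole reads (within 0.001 read) were recovered for 100% of them. Per the submitters' processing notes the builds GRCm39 and mm10 were used, without their roles; which aligner, counter and annotation, and whether strand was used, is not given in the sources used. Of the 25655 listed IDs, 25600 were found in GENCODE M21, from which GRCm38 positions were taken. Splice forms cannot be told apart, and reads of near copies, overlapping and antisense genes may be divided in an unknown way. None of the 490 antigen receptor segments in the list (immunoglobulin or TCR) has any read.

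From the deposited CPM, limma 3.58.1 (R 4.3.3, lmFit and eBayes with a trend) was fitted to log2(CPM + 1) of the 6 WT libraries, over genes with at least 1 CPM in at least 3 of them, with Benjamini-Hochberg adjustment over 10623 genes. The interaction and the KO change came from a fit of all 12 libraries (11173 genes, 4 groups). Calls are adjusted p under 0.05. The alternatives included edgeR 4.0.16 and DESeq2 1.42.0 on whole reads recovered from the CPM steps, on which edgeR called 984 genes higher and 1036 lower. Data were also simulated for 10692 genes of the WT comparison, with the same dispersion for every gene and few genes changed. In these limma recovered 43.3%, 74.2% and 90.9% of 1.5-, 2- and 4-fold changes, with 7 false calls. The rates need not hold for the real libraries, where spread differs between genes and more genes changed.

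Genes were named by size (15 largest rises and falls without overlap and with a mean of at least 5 CPM, 8 largest gains and losses in CPM), by the 4 lowest adjusted p of each of 47 lists, as members of counts of 5 or fewer, by the 6 lowest adjusted p of the interaction in each direction and by a short fixed list. Other genes with values here were chosen after those were seen, as were the SREBP, ATF4, heat shock and interferon motifs. The comparison, its gene lists and these rules were chosen with earlier results of these data known, and some named genes are not reported here. Same-numbered libraries did not deviate together (r of deviations from −0.011 to 0.018), so the numbers were not taken as pairs. The libraries' 1688313 to 1805320 reads set the precision of low genes, and floors of 3 reads cover counting error only.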

Additional observations from a re-analysis of the deposited data

Results flagged for a closer look

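The 12 genes below are those with the lowest adjusted p for a difference between the WT and the KO change from day 3 to day 5, 6 in each direction, each tested by the interaction term in limma over 12 libraries. The WT change lay above the KO change for Ifitm1 by 2.61 on the log2 scale, for Ifitm2 by 1.96, for Mki67 by 1.38, for Tuba1b by 1.25, for Tuba4a by 1.21 and for Top2a by 1.15. It lay below the KO change for Serpine2 with an interaction of −2.58, for Btg1 of −2.51, for Ifi27l2a of −2.31, for Gimap3 of −1.44, for Npc2 of −1.26 and for Shisa5 of −0.96.

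Over 24 settings the sign held for these 12 genes and the largest adjusted p was 0.00475, for Shisa5. Serpine2, the gene of the serine protease inhibitor nexin-1, held 14.02, 14.5 and 14.1 CPM in WT at day 5 and 34.4, 27.7 and 37.4 CPM in WT at day 3, while KO libraries held 486, 442 and 523 CPM at day 5 and 167, 161 and 214 CPM at day 3. Npc2, a lysosomal carrier of cholesterol, rose in WT and held 1064, 948 and 1015 CPM in KO at day 5 and 288, 304 and 375 CPM in KO at day 3. The α-tubulin gene Tuba4a held 547.5, 574 and 571 CPM in WT at day 5 and 589.9, 562 and 606 CPM in WT at day 3, against 211, 219.5 and 219.8 CPM in KO at day 5 and 549, 529 and 492 CPM in KO at day 3.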

How the results depend on the processing

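Between the days in WT no gene that the rule named and any setting called changed direction under the alternatives run. The counts of 1142 higher and 773 lower genes came to 247 and 81 with a 2-fold minimum and 401 and 195 without the trend. DESeq2 called 499 higher, and a fit of all 12 libraries 440 lower. Leaving out 1 library gave 796 to 1049 higher and 582 to 673 lower. For the interaction the counts of 1016 and 460 came to 358 and 177 with a 2-fold minimum and 624 and 293 without the trend, DESeq2 called 576 above, and leaving out 1 library gave 766 to 1230 above and 347 to 533 below. The causes were not tested. The other settings (pseudocounts of 0.1 and 5, no filter, at least 5 CPM, 3 scalings, a robust prior and edgeR) kept both counts within 1.5 times. With the replicate number as a replicate block 1112 genes were higher and 759 lower, and the interaction had 1013 above and 459 below; the labels do not say that the numbers pair libraries. Of the genes named by the rule, 109 lost their call without the trend, 38 with DESeq2, 36 in a fit of all 12 libraries and 17 to 26 without 1 of the libraries, among the last Ccl5, Ifng, Tox, Nfkbiz, Fau, Plk3, Mnt, Tcf3, Tgfbr2, Acaa1a, Sesn1, Shmt1 and Gtse1. With 1 read worth at least 0.554 CPM, genes of a few CPM rest on few reads, and called changes in the bottom class of levels were at least 0.92 on the log2 scale.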

Other observations

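Besides Klhl30, H2-Q4, Fosb and Rpl36a-ps1, further called genes had no read at 1 of the days in WT. At day 5 alone Tcn2, the gene of the vitamin B12 carrier transcobalamin 2, had reads, with 1.75, 2.79 and 2.26 CPM, as had Noxred1 and A730071L15Rik. At day 3 alone the myosin gene Myh2 and 1700109H08Rik had reads. Against a floor of 3 reads a group, Tcn2, Noxred1 and A730071L15Rik were at least 3.30-fold to 3.97-fold higher at day 5, Myh2 at least 3.99-fold lower and 1700109H08Rik at least 3.66-fold lower. These are changes of a few reads per library.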
